A study of Mus musculus with 2 samples.

Results

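Cartilage cells rich in Prg4 were taken from single-cell transcriptomes of mouse tissue labelled olfactory epithelium. A barcode was kept as a cell if it had at least 1000 unique molecular identifiers (UMIs, each standing for 1 captured RNA molecule), at least 300 genes and at most 15% mitochondrial UMIs. A cell was counted as a Prg4 surface cell if it had at least 3 UMIs of Prg4, at least 1 UMI of Wif1 or Notum, and at most 1 UMI each of Ucma and Col10a1. This rule took 844 of 14136 cells of mouse 1 (5.97%, with a 95% Clopper-Pearson interval from 5.59% to 6.37%) and 363 of 9680 cells of mouse 2 (3.75%, from 3.38% to 4.15%), together 1207 of 23816 cells. The mean share was 4.86% ± 1.57 (SD, n = 2 mice), and the intervals of the mice did not overlap. Both animals were male wildtype C57BL/6J mice of 1 group, each gave 1 library, and the labels read here give no age. No treatment or genotype was compared, so the comparisons below are between kinds of cells of the same 2 mice. Their p-values rest on how the differences between sets vary between these 2 mice, pooled over the sets of a fit. They do not cover a spread over other animals.

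Prg4 encodes lubricin, the secreted glycoprotein that coats and lubricates the surface of joint cartilage and is made there by flattened cells of the superficial zone and by the synovial lining. Deeper chondrocytes make a matrix of type II collagen and aggrecan, and Ucma marks chondrocytes away from the surface, while Col10a1 marks hypertrophic ones that precede mineralization. Wif1 encodes a secreted inhibitor that binds Wnt proteins, and Notum encodes a secreted enzyme that removes the lipid Wnt proteins need for signalling. Both lower Wnt signalling around the cells that make them. Hbegf encodes a ligand of the epidermal growth factor (EGF) receptor, and Clu encodes clusterin, a secreted chaperone found at articular cartilage surfaces. Where in the nose these cells lay was not measured, so the word surface here stands for the rule alone.

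The tables held 95844802 UMIs for mouse 1 and 86049057 for mouse 2, of which 75242309 and 68027119 were in cells. Prg4 surface cells had a median of 5116.5 UMIs in mouse 1 and 7710 in mouse 2, against 3908.5 and 5199 over all cells. Among cells of both libraries 483 barcodes were shared, which included 31 and 21 of the Prg4 surface cells. Scrublet, a doublet caller, marked 1 and 4 cells and was judged not to have worked, so the cells with its highest scores (1599 and 750, at 0.8% per 1000 cells) were taken out only as an alternative. These held 19.4% and 15.4% of the Prg4 surface cells, 19.6% and 18.3% of other cartilage cells, 14.3% and 7.27% of Ucma chondrocytes and 4.44% and 2.68% of fibroblasts. Intervals cover counting error only.

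The label was first checked against cartilage genes that the rule did not use. At least 1 UMI of Col2a1, the type II collagen gene, was found in 85.8% of the Prg4 surface cells of mouse 1 and 77.4% of those of mouse 2, and Acan, the aggrecan gene, in 84.4% and 79.3%. Sox9, the transcription factor that directs cartilage formation, was found in 87.3% and 82.6%. Immune cells, taken as cells with at least 2 UMIs of the leukocyte gene Ptprc that were not Prg4 surface cells, should lack these genes. They had Col2a1 in 48.2% and 47.5%, Acan in 23.9% and 10.6% and Sox9 in 22.5% and 13.5%, at median depths of 4612 and 5581 UMIs. The 12 cartilage markers summed to 8999 and 8351 CPM (UMIs of a gene over all UMIs of the set, times 10 to the power of 6) in the Prg4 surface cells, against 463 and 373 CPM in fibroblasts, where Col2a1 and Acan are at 0 by the choice of the cells, and 10180 and 9722 CPM in near-empty barcodes (50 UMIs or fewer), a source of free RNA. The median cell had 8 of 12 cartilage markers in both mice, and 94.8% and 92.3% of cells had at least 3, whereas 11 and 4 cells had none. By these markers most of the cells were cartilage cells, above the shares in immune cells. Ptprc, the pan-leukocyte gene, was found in 1.42% and 0.551% of them, and the endothelial genes Pecam1 or Cdh5 in 10.7% and 11.02%. The 5 markers of olfactory neurons summed to 4.78 and 4.16 CPM, with Rtp1 at 0, against 3.95 and 6.54 CPM in near-empty barcodes.

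The rule genes themselves are given as a description, since they chose the cells. Prg4 (ENSMUSG00000006014) had a median of 9 UMIs per cell in mouse 1 and 12 in mouse 2, with a lowest count of 3 in both mice and highest counts of 236 and 237. As a level it stood at 3044 and 2781 CPM, against 39.4 and 18.8 CPM in other cartilage cells, 31.0 and 20.2 CPM in Ucma chondrocytes, 28.1 and 22.3 CPM in fibroblasts and 575 and 449 CPM in near-empty barcodes. Prg4 was therefore present in the free RNA, and the comparison sets are low because each was limited to at most 1 UMI of it. Among immune cells, which should lack Prg4, 2.46% (95% interval 0.997% to 5.01%) and 2.13% (0.441% to 6.09%) had 3 or more UMIs, at median depths of 4612 and 5581 UMIs. Among endothelial cells 10.5% and 10.8% did, at 5148 and 5681 UMIs. Endothelial cells were those with at least 2 UMIs of Pecam1 or of Cdh5. All Prg4 surface cells had 3 or more Prg4 UMIs by definition, and they were left out of the immune and endothelial cells. Leaving them out can only lower these shares, so the background of the limit may be higher than the shares show.

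Wif1 (ENSMUSG00000020218) stood at 2001 and 2212 CPM in the Prg4 surface cells, against 1499 and 1732 CPM in other cartilage cells and 97.9 and 65.9 CPM in fibroblasts. Notum (ENSMUSG00000042988) stood at 321 and 377 CPM, against 178 and 188 CPM in other cartilage cells and 4.21 and 4.82 CPM in fibroblasts. Near-empty barcodes had 1001 CPM of Wif1 in each mouse and 112 and 114 CPM of Notum. Both Wnt inhibitors were thus read across cartilage and in the free RNA and were low in fibroblasts. Of the Prg4 surface cells 56.4% and 61.2% had UMIs of both genes, 38.5% and 33.6% had Wif1 alone and 5.09% and 5.23% Notum alone.

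**Figure D1:**
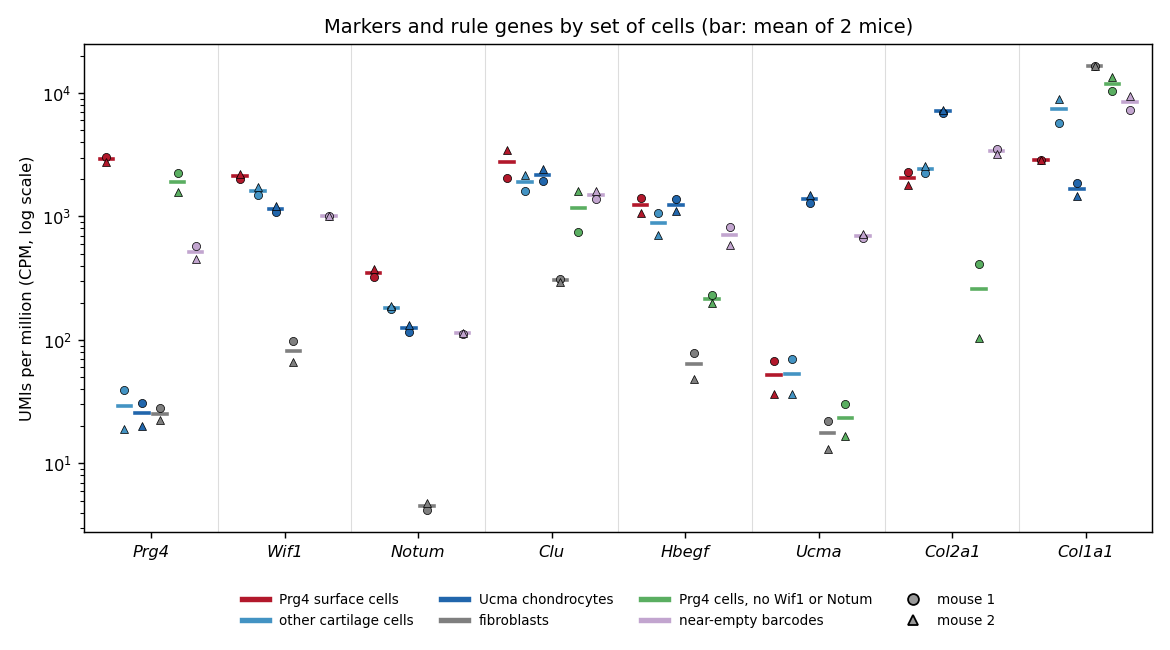
Level of rule genes, given markers and matrix genes (CPM, log axis) in Prg4 surface cells, other cartilage cells, Ucma chondrocytes, fibroblasts, Prg4 cells without Wif1 or Notum, and near-empty barcodes; each point is a mouse and each bar the mean of 2 mice, and sets without a point were at 0 by their definition. Wif1 and Notum are lowest in fibroblasts among the sets not defined by their absence, Clu and Hbegf are higher in each cartilage set than in fibroblasts, and Col1a1 is 2859 and 2850 CPM in Prg4 surface cells against 16448 and 16488 CPM in fibroblasts.

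Cells with Prg4 were far more numerous than the set described. Of 2856 and 1822 cells with at least 3 Prg4 UMIs, 2481 and 1534 had Wif1 or Notum, and the limits on Col10a1 and Ucma took these to 844 and 363. The limit on Ucma left out 1595 and 1153 of these cells and that on Col10a1 197 and 163, with some left out by both. Without these limits the share would be 16.7% (mean of the mice), and with at least 10 Prg4 UMIs it would be 2.55%. Inside the limit, 219 and 72 cells had 3 or 4 Prg4 UMIs, and 562 and 242 cells just outside it had 1 or 2 with all else equal. Those just inside had 4669 and 5462 CPM of Col1a1, the type I collagen gene, against 9098 and 9275 CPM just outside. Bmp2 stood at 701 and 487 CPM just inside, against 435 and 267 CPM just outside. Col1a1 was thus lower and Bmp2 higher on the inner side of the limit in both mice, without a test.

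A further set of Prg4 cells lacked Wif1 and Notum (326 and 270 cells, also with at most 1 UMI of Ucma and Col10a1). Prg4 stood at 3044 and 2781 CPM in the Prg4 surface cells, against 2261 and 1575 CPM in the cells without Wif1 or Notum. Col2a1 stood at 2304 and 1790 CPM against 414 and 103 CPM, and Sox9 at 1347 and 937 CPM against 251 and 71.3 CPM. Col1a1 stood at 2859 and 2850 CPM, against 10417 and 13364 CPM in the cells without Wif1 or Notum and 16448 and 16488 CPM in fibroblasts. Thbs4, which encodes a thrombospondin of tendon and other connective tissue, stood at 182 and 355 CPM against 515 and 720 CPM. In both mice the Prg4 surface cells were thus the higher in these cartilage genes and the lower in the connective tissue genes, without a test. Wif1 and Notum, which divided these sets, were themselves higher in cartilage cells than in fibroblasts, so the division favoured this direction.

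The most abundant named transcripts of the Prg4 surface cells were matrix genes, after the ribosomal RNA gene Rn18s-rs5, which had 24164 and 46592 CPM. Mgp, an inhibitor of calcification, stood at 12283 and 14084 CPM, and Sparc, a collagen-binding matrix protein gene, at 10986 and 15154 CPM. Cytl1, a secreted factor gene of cartilage, followed at 6708 and 9613 CPM. Sdc4, a cell surface proteoglycan gene, had 5096 and 4739 CPM, Dcn, the decorin gene, 4803 and 4582 CPM, and Fn1, the fibronectin gene, 5135 and 3888 CPM. Mitochondrial and ribosomal protein genes were left out of this order. The 22 genes of the cartilage matrix list summed to 16413 and 19878 CPM in Prg4 surface cells and to 16871 and 18461 CPM in near-empty barcodes. The part of free RNA in this order was not tested.

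The given markers Clu and Hbegf were compared next. Clu (ENSMUSG00000022037) stood at 2043 and 3460 CPM in Prg4 surface cells, against 1619 and 2186 CPM in other cartilage cells, 1920 and 2423 CPM in Ucma chondrocytes and 313 and 295 CPM in fibroblasts. Hbegf (ENSMUSG00000024486) stood at 1399 and 1061 CPM, against 1068 and 714 CPM in other cartilage cells, 1372 and 1104 CPM in Ucma chondrocytes and 78.7 and 48.1 CPM in fibroblasts. Both genes were far higher than in fibroblasts and lay near the levels of the cartilage sets. The 5 given markers together, which include the rule genes, summed to 3899 and 3762 CPM in near-empty barcodes. They summed to 4404 and 4838 CPM in other cartilage cells and 522 and 436 CPM in fibroblasts. Fibroblasts were chosen without Acan and Col2a1 UMIs, so cells with free RNA of these genes were left out of that set. In edgeR's quasi-likelihood test with Benjamini-Hochberg adjustment over all tested genes, Clu was higher than in fibroblasts by 3.15 ± 0.22 on the log2 scale (SE, adjusted p = 2.87e-06) and Hbegf by 4.31 ± 0.16 (adjusted p = 1.74e-12). Against other cartilage cells the differences were 0.50 ± 0.20 for Clu (adjusted p = 0.365) and 0.46 ± 0.14 for Hbegf (adjusted p = 0.131), and against Ucma chondrocytes 0.17 ± 0.20 and −0.17 ± 0.14 (adjusted p = 0.738 and 0.570). Hbegf passed against other cartilage cells once the cells with the highest doublet scores were removed (0.50, adjusted p = 0.0471), and also without a filter on low counts, with at least 10 Prg4 UMIs (0.66) and with other cartilage cells of 1 or more Acan UMIs (1.12, adjusted p = 0.000406). Neither marker passed against Ucma chondrocytes, while both passed against fibroblasts.

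With every cell thinned to 1000 UMIs, Clu was detected in 62.6% and 71.6% of Prg4 surface cells, 47.7% and 44.0% of other cartilage cells, 61.4% and 64.5% of Ucma chondrocytes and 10.8% and 9.97% of fibroblasts. The same order of sets was seen in both mice for Clu. Before thinning the shares were 85.0% and 86.0% in Prg4 surface cells, and immune cells, which mark the background, had 26.8% and 22.7%.

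The Prg4 surface cells were compared with other cartilage cells, which had at least 2 UMIs of Acan and at most 1 of Prg4, Ucma and Col10a1 (1039 and 436 cells). This asks what marks Prg4 cells among cartilage cells of the same mice. Genes of the BMP family of bone and cartilage growth factors, the growth factor gene Ptn and the calcium-binding protein gene Tesc were higher in Prg4 surface cells, and the secreted Wnt inhibitor gene Frzb, the bone factor gene Runx2 and the smooth muscle actin gene Acta2 were lower. Counts were summed per mouse and set, and the mouse was a block in the fit. Of 17372 genes 197 passed (1.13%), 79 of them higher (0.455%) and 118 lower (0.679%), and 2085 had an unadjusted p under 0.05. The 10 genes that cut the sets were not tested.

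Bmp2 (ENSMUSG00000027358), a ligand that drives cartilage and bone formation, stood at 781 and 772 CPM in Prg4 surface cells, against 387 and 235 CPM in other cartilage cells and 268 and 183 CPM in near-empty barcodes. The difference was 1.36 ± 0.15 (SE) on the log2 scale (edgeR adjusted p = 0.000275). After thinning to 1000 UMIs, Bmp2 was detected in 42.3% and 41.9% of Prg4 surface cells, against 24.8% and 15.1% of other cartilage cells. Bmp5, another ligand of the family, stood at 193 and 127 CPM against 92.0 and 71.5 CPM (0.94 ± 0.14). Bmp7 was far less abundant, at 17.3 and 19.8 CPM against 4.98 and 2.32 CPM (2.27 ± 0.35). These were the 3 genes of the 26 tested of the list of BMP ligands, receptors and antagonists that passed, all higher, with a list median of 0.17 beside −0.01 over all genes. Bmp2 and Bmp7 passed with each mouse left out of either set, whereas Bmp5 reached an adjusted p of 0.0594 without mouse 1 of the Prg4 surface cells.

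Ptn (ENSMUSG00000029838), which encodes the heparin-binding growth factor pleiotrophin, stood at 152 and 161 CPM against 62.5 and 58.5 CPM (1.35 ± 0.17). Tesc stood at 50.01 and 61.04 CPM against 20.9 and 16.5 CPM (1.54 ± 0.23). Ank, a membrane protein gene of pyrophosphate export that limits mineral, stood at 1267 and 922 CPM against 598 and 498 CPM (0.97 ± 0.19). Each was higher in both mice. Piezo2, a mechanically opened channel gene, stood at 114 and 122 CPM against 76.2 and 48.9 CPM (0.89 ± 0.17). Foxa3, a forkhead transcription factor gene, stood at 56.6 and 46.5 CPM against 29.1 and 27.5 CPM (0.85 ± 0.15). Also higher were Fam167a (1.29 ± 0.26), Moxd1 (1.27 ± 0.19), the calcium channel gene Cacna1e (1.17 ± 0.21), Chst3, an enzyme of chondroitin sulfation (1.12 ± 0.19), Tll1, a protease of the BMP1 family (1.11 ± 0.19), Anxa3 (1.07 ± 0.19) and Thsd4 (1.04 ± 0.19). Of these 12 genes, only Ptn passed with each mouse left out of either set; the others lost the call in at least 1 of 4 such fits, with adjusted p up to 0.0554 for Tesc (without mouse 2 of other cartilage cells), 0.207 for Ank (also without it) and 0.300 for Piezo2 (without mouse 2 of the Prg4 surface cells).

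Among genes lower in the Prg4 surface cells, Frzb, a secreted Wnt inhibitor, stood at 8.97 and 7.98 CPM against 31.9 and 50.1 CPM (−2.21 ± 0.27). Runx2, the transcription factor of bone and hypertrophic cartilage, stood at 59.0 and 35.4 CPM against 106 and 98.7 CPM (−1.16 ± 0.16). Ecrg4, a secreted peptide precursor gene, stood at 57.6 and 55.1 CPM against 143 and 304 CPM (−1.90 ± 0.25). Frzb was the 1 gene of the 10 tested secreted Wnt inhibitors that passed. Lrrc15, a membrane protein gene of connective tissue cells, stood at 14.7 and 12.1 CPM against 56.9 and 59.9 CPM (−2.12 ± 0.18). Tpm2, a tropomyosin gene, stood at 23.9 and 32.9 CPM against 69.9 and 88.3 CPM (−1.51 ± 0.19). These 5 genes passed with each mouse left out of either set. Acta2, the smooth muscle actin gene, stood at 6.18 and 14.9 CPM against 101 and 245 CPM (−4.06 ± 0.49, adjusted p up to 0.231 without mouse 2 of the Prg4 surface cells). Gpx3 (−1.25 ± 0.16) and the chemokine gene Ccl21a (−2.87 ± 0.21), which may share reads with gene copies, did not pass once the highest doublet scores were removed.

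**Figure D2:**
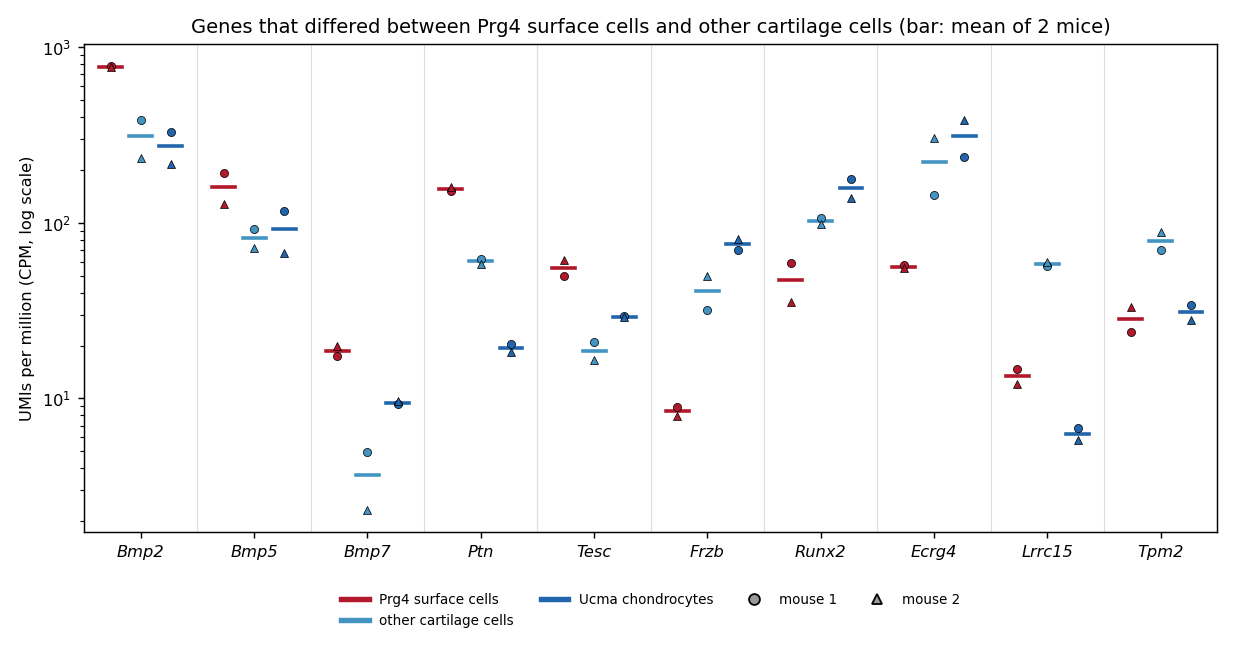
Level (CPM, log axis) of 10 genes in Prg4 surface cells, other cartilage cells and Ucma chondrocytes; each point is a mouse and each bar the mean of 2 mice. Bmp2 in Prg4 surface cells, at 781 and 772 CPM, lies above every point of the other sets, and Frzb, at 8.97 and 7.98 CPM, lies below every one.

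The lists of cartilage, superficial zone and fibroblast genes held no gene that passed between the Prg4 surface cells and other cartilage cells. Of 22 tested cartilage matrix genes 0 passed in edgeR's test (median 0.01), as did 0 of 13 superficial zone and synovial lining genes (median −0.03) and 0 of 14 fibroblast genes (median −0.40). By DESeq2's Wald test these counts were 1, 0 and 0, and 9, 6 and 3 of the genes had an unadjusted p under 0.05 in edgeR's test. With other cartilage cells that needed only 1 UMI of Acan, 12 matrix genes were higher and 8 fibroblast genes lower, and with the highest doublet scores removed 3 fibroblast genes were lower, and 1 superficial zone gene was higher and 2 lower. Levels of markers of other cells also differed between the sets. The 6 fibroblast markers summed to 12776 and 12143 CPM in Prg4 surface cells, against 16764 and 21831 CPM in other cartilage cells. The 5 pericyte or smooth muscle markers summed to 391 and 379 CPM against 510 and 775 CPM, and the 6 immune markers, with Cd3e at 0 in Prg4 surface cells, to 26.7 and 13.5 CPM against 121 and 33.9 CPM. The 5 osteoblast markers, which include Runx2, summed to 215 and 76.0 CPM against 209 and 934 CPM, the 5 endothelial markers to 58.4 and 32.6 CPM against 85.6 and 64.3 CPM, and the 4 skeletal muscle markers to 17.9 and 12.1 CPM against 181 and 18.5 CPM. Median depths were 5116.5 and 7710 UMIs against 3718 and 6226 UMIs. The part of these other cells, of free RNA or of depth in the differences was not tested. The count of genes was sensitive to the sets: 2222 passed when other cartilage cells needed only 1 UMI of Acan, 374 with the highest doublet scores removed, and between 44 (without mouse 2 of the Prg4 surface cells) and 322 (without mouse 1 of other cartilage cells) with 1 mouse left out of a set. Without mouse 1 of the Prg4 surface cells 87 passed, and without mouse 2 of other cartilage cells 74.

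Against Ucma chondrocytes, the cells with at least 3 Ucma UMIs and at most 1 of Prg4 and Col10a1 (1543 and 991 cells), the Prg4 surface cells had more RNA of genes known from the superficial zone and the synovial lining and less of the cartilage matrix genes. The list of fibroblast genes was also shifted up, with 4 of 14 higher and 0 lower. Its median of 1.46 was above the 0.71 of the superficial zone list, so the rise was not particular to superficial zone genes. The 2 sets also differed in inhibitors of Wnt and BMP signalling, in Bmp2 and in immediate early genes. Of 17372 genes 1091 passed (6.28%), 485 higher (2.79%) and 606 lower (3.49%). Prg4 surface cells had median depths of 5116.5 and 7710 UMIs, against 7504 and 11053 UMIs.

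Of 13 tested genes of the superficial zone and synovial lining, 9 were higher and 0 lower, with a median of 0.71 beside −0.01 over all genes. Tppp3, a tubulin-binding protein gene of tendon and joint surface cells, stood at 118 and 65.5 CPM in Prg4 surface cells, against 40.7 and 17.0 CPM in Ucma chondrocytes (1.56 ± 0.16). Creb5, a transcription factor gene known to be needed for Prg4 expression in articular chondrocytes, stood at 77.9 and 69.7 CPM against 30.4 and 27.1 CPM (1.20 ± 0.19). Cilp, a matrix protein gene of intermediate cartilage layers and tendon, stood at 91.2 and 130 CPM against 20.9 and 8.37 CPM (2.79 ± 0.46). Thbs4 stood at 182 and 355 CPM against 52.4 and 77.5 CPM (1.86 ± 0.33). Cilp and Thbs4, the largest changes among the list genes that passed, are also genes of tendon. The list is therefore not limited to the superficial zone and synovial lining. Thbs4 was higher in only a part of the Prg4 surface cells, as given below. The other genes that passed were Cd55, Dkk3, Htra1, Gas1 and Cd44, by 0.51 to 1.31. Tppp3, Creb5 and Cilp passed with each mouse left out of either set, and Thbs4 reached an adjusted p of 0.322 without mouse 2 of Ucma chondrocytes. The other 5 lost the call in at least 2 of the 4 such fits. With 1 mouse left out of a set, 4 to 6 of the 13 were higher: 6 without mouse 1 of the Prg4 surface cells, and 4 without mouse 2 of the Prg4 surface cells and without either mouse of the Ucma chondrocytes.

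Of 22 tested cartilage matrix genes, 14 were lower in the Prg4 surface cells and 1 was higher, with a median of −0.91. Cnmd, which encodes the angiogenesis inhibitor chondromodulin, stood at 772 and 850 CPM in Prg4 surface cells, against 2172 and 2875 CPM in Ucma chondrocytes (−1.78 ± 0.17). Mia, a secreted cartilage protein gene, stood at 118 and 150 CPM against 367 and 447 CPM (−1.76 ± 0.13). Col9a3, a collagen gene of the cartilage fibril surface, stood at 387 and 312 CPM against 949 and 1009 CPM (−1.64 ± 0.14). Comp, the oligomeric matrix protein gene, stood at 1091 and 1115 CPM against 1755 and 2056 CPM (−0.94 ± 0.12). These 4 genes passed with each mouse left out of either set, as did Col9a1, Col9a2, Col11a1, Col11a2 and Cilp2. Epyc, a small leucine-rich proteoglycan gene, was the 1 member higher (2.36 ± 0.42), at 5.58 and 23.6 CPM against 2.11 and 2.22 CPM, and lost the call without mouse 2 of the Prg4 surface cells (adjusted p = 0.149). Between 9 and 12 matrix genes were lower with 1 mouse left out of a set, with 9 without mouse 1 of the Prg4 surface cells.

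**Figure D3:**
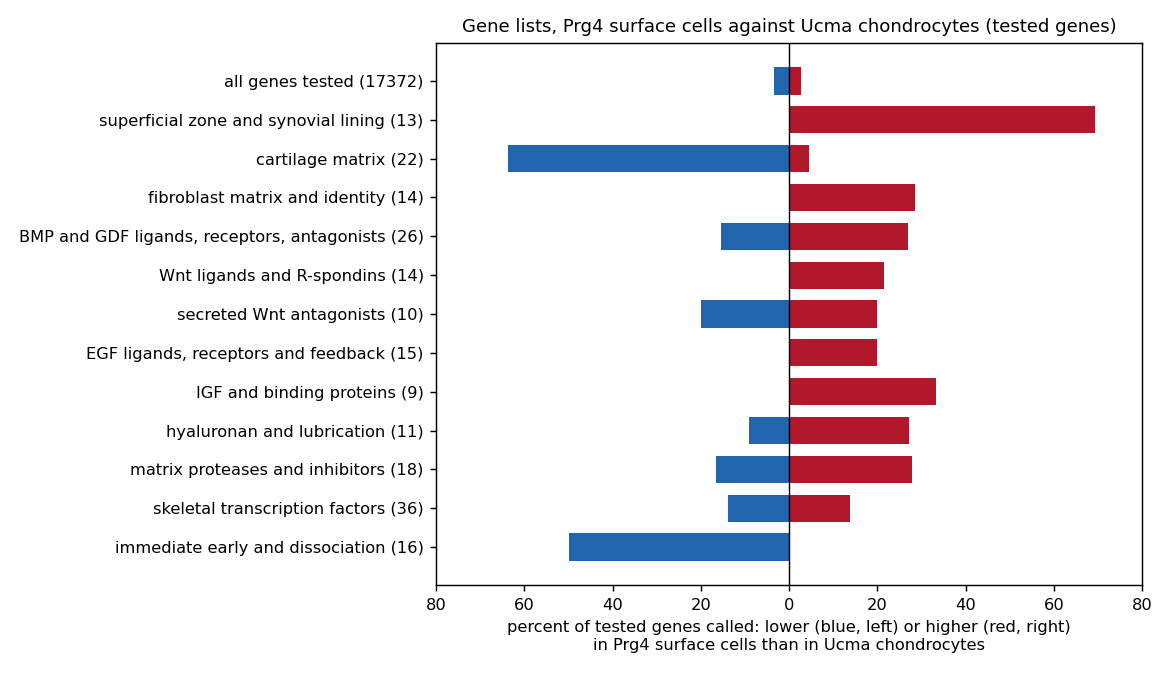
Percent of the tested genes of each list (number in brackets) called lower (blue, left) or higher (red, right) in Prg4 surface cells than in Ucma chondrocytes, with all 17372 tested genes in the top row. The list of the superficial zone, which also holds genes of tendon (9 of 13 higher), and that of the cartilage matrix (14 of 22 lower) point in opposite directions. Immediate early genes are called in 1 direction, lower.

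The secreted inhibitors of Wnt signalling differed gene by gene. Sfrp2 stood at 74.5 and 40.9 CPM in Prg4 surface cells, against 10.7 and 3.93 CPM in Ucma chondrocytes (2.86 ± 0.19), and Dkk3 at 279 and 392 CPM against 160 and 208 CPM (0.70 ± 0.13). Frzb stood at 8.97 and 7.98 CPM against 70.1 and 80.6 CPM (−3.25 ± 0.25), and Sfrp5 at 2.99 and 0.347 CPM against 18.2 and 17.8 CPM (−3.39 ± 0.49). Of 10 tested inhibitors 2 were higher and 2 lower, so members of the same family of secreted Frizzled-related proteins, Sfrp2 on one side and Frzb and Sfrp5 on the other, moved in opposite directions. Dkk3 reached an adjusted p of 0.0862 without mouse 2 of the Prg4 surface cells; the other 3 passed with each mouse left out. Among Wnt ligands and R-spondins 3 of 14 were higher and 0 lower, the best measured being Wnt5a, a ligand of signalling without beta-catenin, at 55.4 and 52.0 CPM against 24.7 and 24.8 CPM (0.96 ± 0.16). Wnt2 and Wnt16 stayed under 4 CPM in both sets and lost the call in each fit with a mouse left out (adjusted p up to 0.425 and 0.277). Of 12 Wnt targets and feedback genes 1 was higher, Tnfrsf19 (1.68 ± 0.37), and it lost the call in 2 of the 4 fits with a mouse left out (adjusted p up to 0.184).

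For BMP signalling 7 of 26 tested genes were higher and 4 lower. Bmp2 stood at 781 and 772 CPM in Prg4 surface cells, against 328 and 218 CPM in Ucma chondrocytes (1.40 ± 0.14). Gdf10, a ligand of the same superfamily, stood at 99.2 and 114 CPM against 30.4 and 38.7 CPM (1.47 ± 0.14), and Bmp4 at 37.5 and 56.2 CPM against 17.5 and 13.0 CPM (1.43 ± 0.24). Of the antagonists, Chrdl1 stood at 13.1 and 5.55 CPM against 42.8 and 37.6 CPM (−2.21 ± 0.27), and Grem1 at 1.79 CPM in mouse 1 and 0 in mouse 2 against 9.07 and 13.9 CPM (−3.50 ± 0.62). With a mouse left out the difference of Grem1 ran from −9.31 to −2.72, the largest being a fit in which the Prg4 surface cells had 0 UMIs of it, so its size is uncertain. Fst, which encodes the antagonist follistatin, was higher (1.54 ± 0.34, adjusted p up to 0.224 with a mouse left out), so antagonists did not all move one way. The first 5 genes passed with each mouse left out of either set; 3 to 6 of the list were then higher, with 3 without mouse 1 of the Prg4 surface cells, 3 without mouse 2 of Ucma chondrocytes and 4 without mouse 2 of the Prg4 surface cells.

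Erbb4, a receptor for HBEGF and neuregulins, stood at 68.3 and 45.1 CPM in Prg4 surface cells, against 25.9 and 17.5 CPM in Ucma chondrocytes (1.22 ± 0.21), and was the largest change of the 3 of 15 EGF pathway genes that were higher, beside the feedback genes Dusp6 and Spry2, which lost the call with a mouse left out (adjusted p up to 0.649 and 0.253). Of 9 insulin-like growth factor genes Igfbp3 (1.66 ± 0.19), Igfbp5 (1.31 ± 0.23) and Igfbp6 (2.06 ± 0.18), which encode binding proteins, were higher, also with each mouse left out. Igfbp6 stood at 309 and 249 CPM against 66.2 and 54.2 CPM. Has1, a hyaluronan synthase gene, stood at 213 and 189 CPM against 114 and 68.3 CPM (1.03 ± 0.14).

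Transcription factor genes of the skeleton were called in both directions, 5 higher and 5 lower of 36. Pax1, a factor of the sclerotome and pharyngeal pouches, stood at 13.7 and 19.8 CPM against 1.05 and 0.342 CPM (4.36 ± 0.60). Osr2, a factor of joint and palate development, stood at 25.1 and 33.3 CPM against 10.8 and 10.0 CPM (1.31 ± 0.20). Creb5, given above, and the Iroquois genes Irx3 (0.82 ± 0.13) and Irx5 (0.98 ± 0.17) were the other higher members. Klf2, a Krüppel-like factor gene, stood at 88.1 and 108 CPM against 171 and 260 CPM (−1.27 ± 0.13). The other lower members were Nfatc2 (−0.90 ± 0.15), Nfatc1 (−0.47 ± 0.10), Klf4 (−0.48 ± 0.12) and Sox8 (−1.45 ± 0.33), which lost the call in at least 1 of 4 fits with a mouse left out (adjusted p up to 0.0754, 0.184, 0.345 and 0.202). Runx2, counted here in the list of hypertrophy genes, stood at 59.0 and 35.4 CPM against 178 and 138 CPM (−1.91 ± 0.15). Pax1, Osr2, Klf2 and Runx2 passed with each mouse left out, and Irx3 and Irx5 reached adjusted p of 0.0542 (without mouse 1 of the Prg4 surface cells) and 0.0919.

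By the rule of largest change, Ptn stood at 152 and 161 CPM in Prg4 surface cells, against 20.3 and 18.3 CPM in Ucma chondrocytes (2.87 ± 0.18), next to Dpysl3 (2.24 ± 0.17) and Anxa3 (1.94 ± 0.18). On the lower side were Spon1 (−2.35 ± 0.16), Ecrg4 (−2.54 ± 0.25), Smoc2 (−2.04 ± 0.12) and Chadl (−2.02 ± 0.16), the gene of a chondroadherin-like matrix protein. Smoc2, a calcium-binding matrix protein gene, stood at 299 and 185 CPM against 1052 and 730 CPM. These 7 genes passed with each mouse left out of either set. Ifi27l2a, Gpnmb and Mfap5 were higher (1.89 for Gpnmb, 1.97 for Mfap5) and Matn3, a cartilage matrilin gene, was lower (−2.93 ± 0.47), and these 4 lost the call in at least 2 of 4 fits with a mouse left out, with adjusted p up to 0.0879 for Mfap5 and 0.40 for Gpnmb.

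Immediate early genes, which also answer to tissue dissociation, were lower in Prg4 surface cells for 8 of 16 and higher for 0 (median −0.54). Fos stood at 1226 and 1217 CPM against 2118 and 2132 CPM (−0.95 ± 0.12) and Jun at 502 and 482 CPM against 957 and 916 CPM (−1.08 ± 0.12). Both passed with each mouse left out, and 4 to 6 of the 16 were then lower, with 4 without mouse 1 of the Prg4 surface cells and 5 without mouse 2 of Ucma chondrocytes. Markers of other cells also differed. The 6 fibroblast markers summed to 12776 and 12143 CPM in Prg4 surface cells, against 9882 and 8416 CPM in Ucma chondrocytes, the 4 tenocyte markers to 247 and 436 CPM against 81.5 and 116 CPM, and the 5 endothelial markers to 58.4 and 32.6 CPM against 34.5 and 19.6 CPM, with no marker of these lists at 0. In near-empty barcodes the fibroblast markers summed to 21916 and 25194 CPM. The tenocyte markers summed there to 222 and 327 CPM and the endothelial markers to 82.1 and 86.2 CPM. Of 14 tested fibroblast genes 4 were higher, Pi16, Col14a1, Fbln2 and Mfap5, with 2 higher without either mouse of the Prg4 surface cells, and 10 higher and 1 lower with the highest doublet scores removed. The 9 superficial zone genes became 8 and the 14 lower matrix genes 15 with those cells removed. The part of other cells, of free RNA or of depth in these differences was not tested. With 1 mouse left out of a set, between 392 (without mouse 2 of Ucma chondrocytes) and 518 (without mouse 1 of them) genes passed, against 401 without mouse 1 and 430 without mouse 2 of the Prg4 surface cells.

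Most cells with Prg4 and Wif1 or Notum also had Ucma or Col10a1 (1637 and 1171 cells with at least 2 UMIs of either), and the Prg4 surface cells were set against these in a comparison chosen after the counts were seen. The cells with both signals were deeper, with medians of 9522 and 12207 UMIs against 5116.5 and 7710 UMIs. Of the Prg4 surface cells 40.2% and 29.2% had 1 UMI of Ucma, and 5.09% and 5.23% had 1 of Col10a1. The limit thus does not stand for absence of these genes, and how far depth decided the side of a cell was not tested. Of 17566 genes 850 passed (4.84%), 381 higher (2.17%) and 469 lower (2.67%). Of 22 cartilage matrix genes 15 were lower and 0 higher in the Prg4 surface cells, and of 13 superficial zone genes 8 were higher and 1, Erg, was lower (−0.55 ± 0.11). Of 14 fibroblast genes 5 were higher and 0 lower, with a median of 1.40 against 0.74 for the superficial zone list. With the highest doublet scores removed 9 of the 14 were higher and 1 was lower. With 1 mouse left out of a set, 3 to 5 superficial zone genes were higher: 5 without mouse 1 and 4 without mouse 2 of the Prg4 surface cells, and 5 and 3 without those of the other set. Comp stood at 1091 and 1115 CPM in Prg4 surface cells, against 1951 and 2065 CPM in Prg4 cells with Ucma or Col10a1 (−1.04 ± 0.12). Thbs4 stood at 182 and 355 CPM against 23.2 and 16.7 CPM (3.50 ± 0.42), and Mfap4, a microfibril protein gene, at 141 and 143 CPM against 27.3 and 20.9 CPM (2.38 ± 0.19). Ptn stood at 152 and 161 CPM against 37.5 and 29.1 CPM (2.06 ± 0.16).

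Bmp2 and Hbegf were abundant in both kinds of Prg4 cell. Bmp2 stood at 781 and 772 CPM in Prg4 surface cells, against 559 and 488 CPM in Prg4 cells with Ucma or Col10a1 (0.40 ± 0.14, edgeR adjusted p = 0.137). Hbegf stood at 1399 and 1061 CPM against 1846 and 1639 CPM and fell, with a difference of −0.69 ± 0.14 (adjusted p = 0.00939), with adjusted p up to 0.154 without mouse 2 of the other set. Nt5dc1 also fell (−2.89 ± 0.17), but it overlaps Col10a1 on the opposite strand in the GRCm38 annotation, and as no source used here gives the strand used in counting, its reads cannot be told apart from those of Col10a1. The 6 fibroblast markers summed to 12776 and 12143 CPM against 8220 and 6863 CPM, and to 21916 and 25194 CPM in near-empty barcodes. The part of other cells or of free RNA was not tested. With 1 mouse left out of a set 296 to 443 genes passed, with 296 and 347 without mouse 1 and mouse 2 of the Prg4 surface cells, and 443 and 303 without those of the other set.

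Against fibroblasts (1375 and 1455 cells with Col1a1, Dcn and Pdgfra and no Acan or Col2a1) the Prg4 surface cells had more RNA of cartilage matrix genes and less of fibroblast genes. Of 17372 genes 6217 passed (35.8%), 3183 higher (18.3%) and 3034 lower (17.5%). Cartilage matrix genes were higher for 17 of 22 and lower for 0 (median 3.93), and fibroblast genes were lower for 13 of 14. Col12a1 was higher (1.33 ± 0.32) and lost the call without mouse 2 of fibroblasts. Fibroblasts were chosen by the presence of Col1a1, Dcn and Pdgfra and by the absence of Acan and Col2a1. The choice of the cells thus favoured both of these directions. Col9a1 stood at 305 and 359 CPM against 9.56 and 10.4 CPM (5.07 ± 0.15), and Trpv4, an osmotically and mechanically gated channel gene of chondrocytes, at 217 and 192 CPM against 11.5 and 9.93 CPM (4.27 ± 0.15). Of 15 EGF pathway genes 10 were higher and 3 lower. Tgfa, which encodes another EGF receptor ligand, stood at 85.1 and 98.8 CPM against 3.25 and 1.61 CPM (5.30 ± 0.25), and Erbb4 at 68.3 and 45.1 CPM against 1.53 and 2.19 CPM (4.84 ± 0.30). Egfr, the receptor gene itself, stood at 126 and 94.0 CPM against 318 and 302 CPM (−1.52 ± 0.16). The other lower genes were Spry1 (−1.55 ± 0.33), a feedback inhibitor, and Adam17 (−0.40 ± 0.15), which encodes a protease that releases ligands and lost the call in each fit with a mouse left out (adjusted p up to 0.529). The receptor genes Erbb4 and Egfr thus differed in opposite directions.

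Not all superficial zone genes were higher than in fibroblasts: 4 of 13 were higher and 7 lower. Creb5 stood at 77.9 and 69.7 CPM in Prg4 surface cells, against 168 and 158 CPM in fibroblasts (−1.14 ± 0.18), and Abi3bp, a matrix-binding protein gene, at 391 and 429 CPM against 978 and 933 CPM (−1.20 ± 0.13). Creb5 thus stood between Ucma chondrocytes, where it was lower, and fibroblasts, where it was higher. Of 19 tested receptors of Wnt signalling and its amplifiers 4 were higher and 7 lower (median −0.28 beside −0.07 over all genes). The R-spondin receptor gene Lgr6 stood at 163 and 146 CPM against 6.69 and 4.24 CPM (4.86 ± 0.18), whereas Fzd4, a Frizzled receptor gene, stood at 7.37 and 4.16 CPM against 39.9 and 34.2 CPM (−2.61 ± 0.25). Of 12 Wnt targets and feedback genes 6 were higher and 4 lower, and the feedback target Axin2, which did not pass, stood at 11.2 and 8.32 CPM against 12.8 and 11.5 CPM (−0.27 ± 0.29, adjusted p = 0.505). By the rule of largest change the chemokine gene Ccl19 (−3.99 ± 0.24), the complement gene C3 (−3.50 ± 0.52) and the lipase gene Lpl (−3.45 ± 0.45) were lower and Sdk2 (5.12 ± 0.15), Meltf (5.12 ± 0.16) and Corin (4.88 ± 0.15) were higher. With 1 mouse left out of a set 4146 to 4826 genes passed.

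The Prg4 surface cells were then divided by Notum, to see how they vary among themselves in genes the division did not use. The 519 and 241 cells with a Notum UMI had more RNA of 7 of 22 cartilage matrix genes, of the receptor genes Fgfr3 and Erbb4 and of Bmp2 than the 325 and 122 cells with Wif1 alone, and less RNA of 2 of 4 tenocyte markers and 4 of 14 fibroblast genes. Of 16364 genes 591 passed (3.61%), 284 higher (1.74%) and 307 lower (1.88%) in the Notum-positive cells. Their median depths were 5853 and 8218 UMIs, against 4068 and 6391.5 UMIs, and 17.5% and 9.96% of them had the highest doublet scores, against 22.5% and 26.2%.

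Corin, which encodes a membrane serine protease, stood at 267 and 237 CPM in Notum-positive cells, against 91.3 and 43.7 CPM in cells with Wif1 alone (1.91 ± 0.18). Dapl1, the gene of a small death-associated protein, stood at 56.3 and 104 CPM against 8.36 and 17.0 CPM (2.73 ± 0.38). Lgi4 stood at 263 and 311 CPM against 113 and 89.7 CPM (1.48 ± 0.17). Fgfr3, the receptor that restrains growth of cartilage, stood at 100 and 103 CPM against 47.6 and 47.3 CPM (1.12 ± 0.16), and Erbb4 at 86.6 and 54.9 CPM against 27.6 and 20.6 CPM (1.61 ± 0.27). The 5 genes were higher in the Notum-positive cells of both mice, but all 591 genes that passed had the same direction in both mice. Of 26 BMP genes 4 were higher and 3 lower, Bmp2 at 845 and 890 CPM against 638 and 478 CPM (0.71 ± 0.16), Gdf10 (0.96 ± 0.17), the target gene Id1 (1.09 ± 0.17) and Smad7 (0.54 ± 0.14) being the higher. The lower ones encode secreted antagonists or related proteins: Chrdl1 (−2.13 ± 0.41), Fst (−2.02 ± 0.37) and Fstl1 (−0.88 ± 0.16). Of 22 cartilage matrix genes 7 were higher and 1, Fmod, was lower, with Col9a2 at 696 and 649 CPM against 405 and 304 CPM (0.95 ± 0.14). Skeletal transcription factor genes were higher for 6 of 36 and lower for 0, among them Irx3 (1.10 ± 0.18) and Sox9 (0.55 ± 0.13).

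Several of these calls were lost with 1 mouse left out of a set, which leaves that set with 1 sum. The differences kept their direction, with Erbb4 from 1.46 to 1.72, Fst from −2.09 to −1.81 and Bmp2 from 0.381 to 1.06. Bmp2 had an adjusted p up to 0.356, Erbb4 up to 0.0738, Smad7 up to 0.283, Chrdl1 up to 0.246, Fst up to 0.135, Fstl1 up to 0.059, Fmod up to 0.193 and Sox9 up to 0.294 with a mouse left out, whereas Corin, Dapl1, Lgi4, Fgfr3, Gdf10, Id1, Col9a2 and Irx3 passed in each of the 4 such fits. Of the BMP genes 2 were then higher without mouse 2 of the Notum-positive cells and without either mouse of the cells with Wif1 alone. Skeletal transcription factor genes higher then numbered 1 to 5, with 1 and 2 without mouse 2 of the cells with Wif1 alone and mouse 1 of the Notum-positive cells, and 3 without mouse 2 of the Notum-positive cells. Higher matrix genes then numbered 1 to 9, with 1 without mouse 2 of the cells with Wif1 alone and 3 without mouse 2 of the Notum-positive cells. All genes that passed numbered 187 to 378: 363 and 187 without mouse 1 and mouse 2 of the Notum-positive cells, and 378 and 222 without those of the cells with Wif1 alone. Myadml2os was higher by 2.81 ± 0.40, but it overlaps Notum on the opposite strand in the GRCm38 annotation, and since no source used here gives the counting strand its reads cannot be told apart from those of Notum, which made the division.

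Lower in the Notum-positive cells was Thbs4, at 43.9 and 31.6 CPM, against 488 and 1164 CPM in cells with Wif1 alone (−4.27 ± 0.51). Sfrp2 stood at 27.7 and 5.34 CPM against 179 and 130 CPM (−3.20 ± 0.31), and Thbs2, another thrombospondin gene, at 15.6 and 8.74 CPM against 73.9 and 107 CPM (−2.79 ± 0.27). Tnmd, which encodes the tendon protein tenomodulin, stood at 22.8 and 8.26 CPM against 97.1 and 186 CPM (−2.93 ± 0.51), and Kera, a proteoglycan gene of tendon and cornea, at 8.95 and 4.86 CPM against 49.5 and 195 CPM (−3.81 ± 0.62). These genes of tendon and other dense connective tissue were lower in the Notum-positive cells of both mice. Of 13 superficial zone genes 6 were lower, among them Cilp (−3.46 ± 0.52), Gas1 (−1.41 ± 0.15), Tppp3 (−1.38 ± 0.18) and Abi3bp (−1.08 ± 0.14), and 1, Dkk3, was higher (0.97 ± 0.14). Igfbp6 stood at 165 and 137 CPM against 630 and 529 CPM (−1.90 ± 0.17).

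Cilp and Tppp3, both higher in Prg4 surface cells than in Ucma chondrocytes, were thus uneven among the Prg4 surface cells. Cilp stood at 31.5 and 22.8 CPM in Notum-positive cells and 224 and 398 CPM in cells with Wif1 alone, against 20.9 and 8.37 CPM in Ucma chondrocytes. Tppp3 stood at 83.7 and 39.8 CPM in Notum-positive cells and 195 and 130 CPM in cells with Wif1 alone, against 40.7 and 17.0 CPM. Thbs4, also higher in the whole set, stood at 43.9 and 31.6 CPM in Notum-positive cells, against 52.4 and 77.5 CPM in Ucma chondrocytes. Its rise over Ucma chondrocytes was thus seen only in the cells with Wif1 alone, whereas Cilp and Tppp3 were higher in both parts. The 4 tenocyte markers summed to 85.2 and 52.0 CPM in Notum-positive cells, against 609 and 1396 CPM in cells with Wif1 alone, and the 6 fibroblast markers to 9109 and 6495 CPM against 20940 and 26248 CPM, with none of either list at 0. In Ucma chondrocytes the tenocyte markers summed to 81.5 and 116 CPM and the fibroblast markers to 9882 and 8416 CPM. The fibroblast sum of Notum-positive cells thus lay below that of Ucma chondrocytes in both mice. The part of other cells or of free RNA in these differences was not tested. With the highest doublet scores removed, Thbs4 differed by −5.57 (adjusted p = 0.00275) and Sfrp2 by −4.45 (adjusted p = 1.38e-08). Sfrp2, Thbs2, Igfbp6, Gas1, Tppp3 and Abi3bp passed with each mouse left out of either set. Thbs4, Kera and Cilp reached adjusted p of 0.0673, 0.125 and 0.204 without mouse 2 of the Notum-positive cells, and Tnmd 0.128 without mouse 2 of the cells with Wif1 alone.

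**Figure D4:**
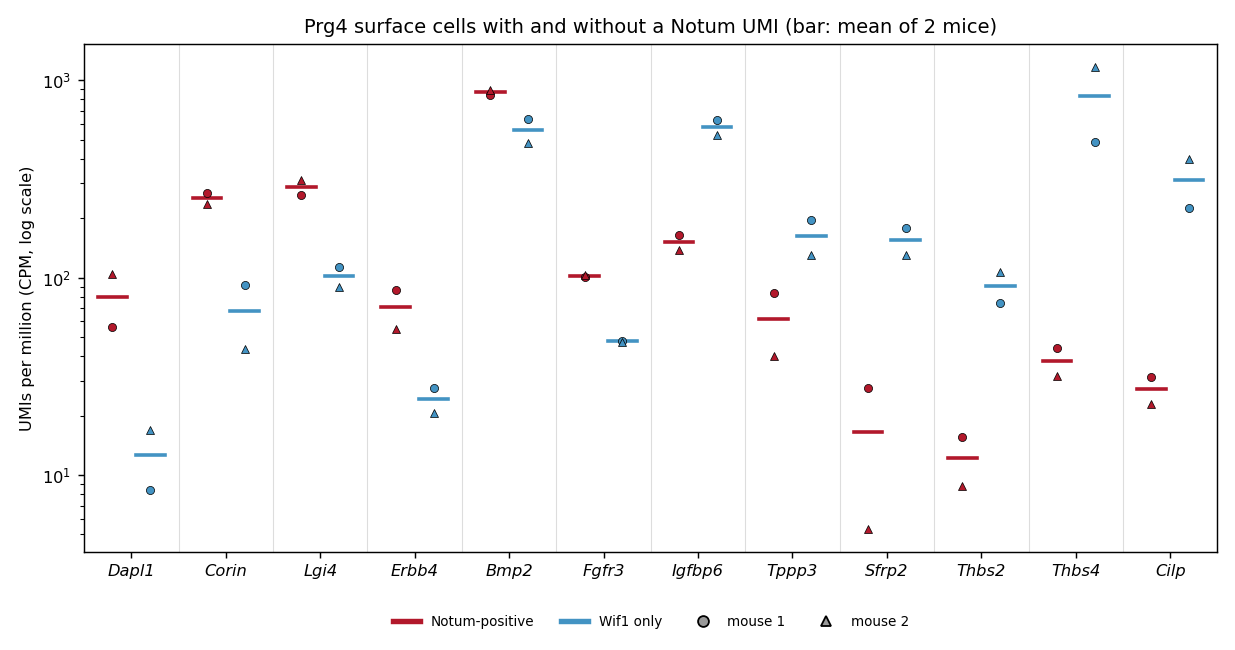
Level (CPM, log axis) of 12 genes in Prg4 surface cells with a Notum UMI and in those with Wif1 alone; each point is a mouse and each bar the mean of 2 mice. Dapl1, Corin, Lgi4, Erbb4, Bmp2 and Fgfr3 are higher in Notum-positive cells and the other 6 genes lower. The 12 genes were picked from those that passed, all of which had the same direction in both mice.

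Levels were also read along the amount of Prg4. The cells of each mouse were put in 3 equal bins by the Prg4 share of their UMIs, a description with no test since Prg4 chose the cells. Bmp2 stood at 617, 777 and 996 CPM in the low, middle and high bin of mouse 1 and at 460, 766 and 1202 CPM in mouse 2. Ank stood at 904, 1300 and 1709 CPM in mouse 1 and 677, 1050 and 1116 CPM, and Hbegf at 1158, 1342 and 1759 CPM and at 885, 1109 and 1249 CPM. Wif1 stood at 1660, 2158 and 2308 CPM in mouse 1 and 1762, 2400 and 2624 CPM. All 4 were higher in each next bin in both mice, and Wif1 was itself a rule gene. Col1a1 ran the other way, at 4355, 2344 and 1360 CPM and at 4863, 2367 and 635 CPM, and so did Cilp, at 129, 79.5 and 52.7 CPM and at 211, 143 and 7.11 CPM. Col2a1 had no common order, at 2233, 2769 and 2001 CPM and at 1957, 1641 and 1721 CPM. Cells with the highest doublet scores were 24.9%, 20.6% and 12.8% of the bins in mouse 1 and 20.7%, 17.4% and 8.26% in mouse 2, in the order of Col1a1, and their part was not tested. Median depths of the bins were 6266, 4093 and 5116.5 UMIs in mouse 1 and 8763, 6944 and 6824 UMIs in mouse 2. The part of depth was not tested either.

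**Figure D5:**
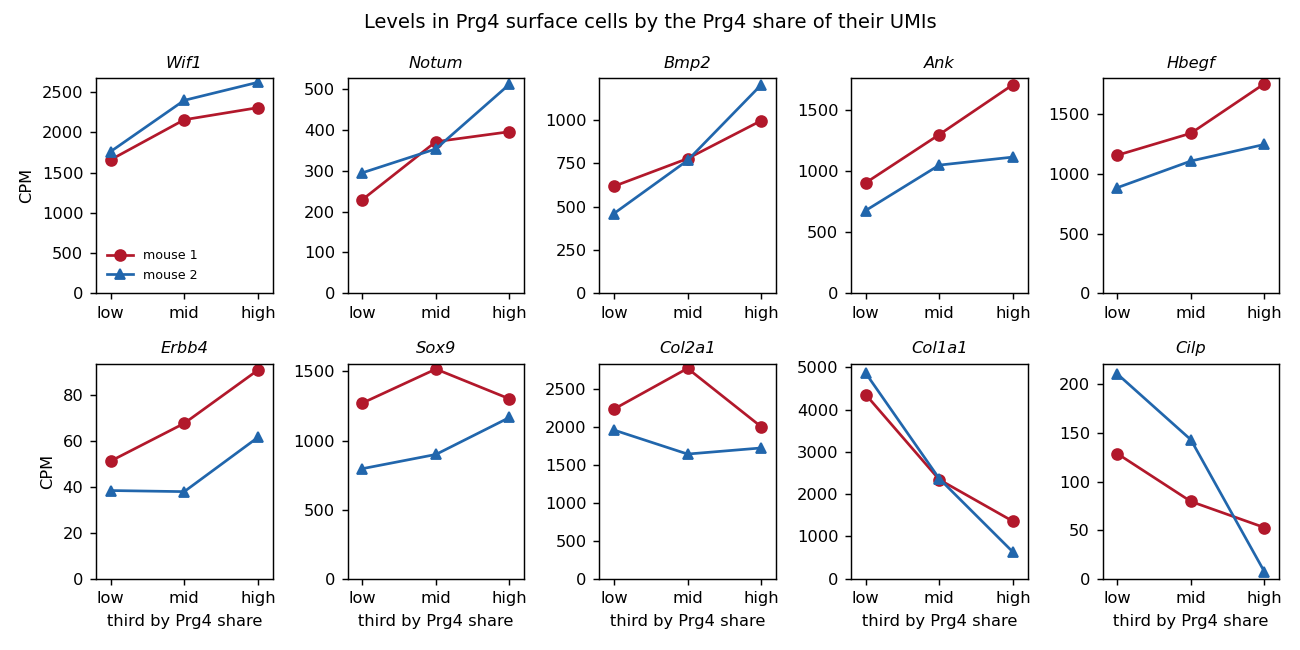
Level (CPM, linear axis from 0) of 10 genes in 3 equal bins of the Prg4 surface cells of each mouse, from a low to a high Prg4 share of UMIs. From the low to the high bin Bmp2 is at 617, 777 and 996 CPM in mouse 1 and 460, 766 and 1202 CPM in mouse 2, while Col1a1 is at 4355, 2344 and 1360 CPM and at 4863, 2367 and 635 CPM.

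The 2 mice had different levels of a small share of genes in the Prg4 surface cells. Of 3746 genes with at least 50 CPM in a mouse, 124 were more than 2-fold apart on CPM plus 1 (3.31%), 94 higher in mouse 1 and 30 higher in mouse 2. Fshr, the follicle-stimulating hormone receptor gene, stood at 96.8 CPM in mouse 1 and 0.694 CPM in mouse 2, and Tlr4, the receptor gene for bacterial lipopolysaccharide, at 71.5 and 7.63 CPM. Cyp26a1, an enzyme that breaks down retinoic acid, stood at 9.36 CPM in mouse 1 and 54.1 CPM in mouse 2. Cd74, a chain of antigen presentation, stood at 32.1 and 141 CPM. Each mouse gave 1 library, so no test was made.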

How the data were processed

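The deposited files hold whole-number counts per gene and barcode without normalization, taken as UMI counts. Per the submitters' processing notes the tools were Cell Ranger 7.0.0 and STAR, whose version is not given, with GRCm39 as the genome; neither the annotation release nor the counting strand is given in the sources used here. Cell filters and the member rule are given above. The members, gene lists and comparisons were chosen with earlier results of these data known. Of 419 list symbols 418 were matched.

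Counts were summed per mouse and set of cells; levels are CPM of these sums. Genes were tested with edgeR 4.0.16 (TMM, filterByExpr, robust quasi-likelihood F test, R 4.3.3) and Benjamini-Hochberg adjustment over all tested genes at 0.05. One fit held 10 sums of 5 sets with 4 residual degrees of freedom; the fits with the Notum division and with Prg4 cells that have Ucma or Col10a1 held 12 sums with 5. The mouse was a block, because each mouse gave a sum to every set. Prg4, Wif1, Notum, Col10a1, Ucma, Acan, Col2a1, Col1a1, Dcn and Pdgfra cut the sets and were not tested. Named genes are, per comparison, called genes of the same direction in both mice with at least 50 CPM in the higher set, the 10 with the largest change above 0 and the 6 below 0, and list members; not every gene this rule gives is reported here. The test was also run on simulated counts with a fixed spread, no difference between mice and equal sets apart from chosen genes. That check therefore does not cover the mouse block or sets that differ widely. Scores came from Scrublet in scanpy 1.11.5. Alternatives included DESeq2 1.42.0.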

Additional observations from a re-analysis of the deposited data

How the results depend on the processing

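Prg4 surface cells made up 4.86% of cells (mean of the mice) by the rule, and 3.75% to 5.97% with a mouse left out. The share moved to 2.83% with UMIs of both Wif1 and Notum, 7.41% without the demand for either, 16.7% without limits on Ucma and Col10a1 and 2.55% with at least 10 Prg4 UMIs. Genes that passed numbered 197 against other cartilage cells, 1091 against Ucma chondrocytes, 6217 against fibroblasts, 591 for the Notum division and 850 against Prg4 cells with Ucma or Col10a1. The mice pair the sums, as each mouse gave cells to every set, and without the mouse as a block the counts in the same order were 1, 82, 3559, 25 and 43. Without a filter on low counts they were 671 against other cartilage cells, 989 for the Notum division and 1446 against Prg4 cells with Ucma or Col10a1. With the highest doublet scores removed 374 and 908 passed against other cartilage cells and for the Notum division, and with at least 10 Prg4 UMIs 543 and 271, and 483 against Prg4 cells with Ucma or Col10a1. With 1 UMI of Acan 2222 passed against other cartilage cells. With a mouse left out of a set the counts ran from 44 to 322, 392 to 518, 4146 to 4826, 187 to 378 and 296 to 443, in the same order of comparisons. DESeq2 (222, 817, 4533, 625 and 835), its size factors, at least 2000 UMIs, at most 10% mitochondrial UMIs, 2000 to 20000 UMIs, and removal of shared barcodes, chosen after seeing the data, each kept the counts within 1.5 times. Over 658 pairs of a comparison with a gene named in the text or by the rule of largest change, 8359 values under an alternative kept their call, 695 lost it, 261 gained it and 4 changed direction. Thbs2 against Ucma chondrocytes was 0.63 (adjusted p = 0.0405) and was −0.38 (adjusted p = 0.337) with at least 10 Prg4 UMIs. Ereg, an EGF receptor ligand gene under 4 CPM against Prg4 cells with Ucma or Col10a1, was 3.21 (adjusted p = 0.0343), and was −1.80 with the highest doublet scores removed, −4.01 with at least 10 Prg4 UMIs, and between −2.0 (without mouse 1 of the Prg4 surface cells) and 3.53 with a mouse left out. The cause was not tested. With 2 mice, depth of a sum and the spread of only 2 animals limit what could be called.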
